A study of Arabidopsis thaliana with 12 samples.

Results

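The 26S proteasome subunit genes were described in leaves of Arabidopsis thaliana that carry an autoactive immune receptor, and in plants in which that autoactivity is suppressed. The members were the genes whose AGI codes (the locus names of the Arabidopsis genome) were listed for the RPT, RPN, PA and PB subunits. They numbered 43 of the 28496 genes measured. By name, 10 were RPT ATPases, 5 were RPN genes of the base, 9 were RPN genes of the lid, 10 were PA (alpha) genes and 9 were PB (beta) genes.

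The 26S proteasome is the protease that degrades proteins tagged with ubiquitin chains. Its 20S core is a barrel in which rings of beta subunits, some of them proteolytic, lie between rings of alpha subunits that gate the entrance. The 19S particle caps the barrel, with a base of RPT ATPases and RPN scaffolds that unfolds substrates and a lid that removes the ubiquitin. In plants the pathway acts in hormone and immune signalling and sets the turnover of several immune receptors, and NAC053 and NAC078, transcription factors of Arabidopsis, are known to raise transcription of the subunit genes when proteasome activity is inhibited.

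RNA of leaves was sequenced in 4 genotypes, with 3 samples each from 3 independent experiments under short days and each made of 2 leaves from at least 2 plants. ADR1-L2 D484V (ADR1-L2 DV) carries, in an adr1-l2-4 mutant of Col-0, a transgene for the helper receptor ADR1-L2 with an activation mimic change in its MHD motif, driven by the ADR1-L2 promoter. ADR1-L2 D484V 26.6 (sadr1-26.6) and ADR1-L2 D484V 30.4 (sadr1-30.4) are that line with 1 mutant allele each of SADR1, a TIR-type immune receptor gene, recovered in a suppressor screen. The read values used were 1 pooled value per gene and genotype, with no value per sample. No SD is therefore given and no test was run between genotypes, and every difference between genotypes below is a difference of 2 pooled values.

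Pooled reads per genotype numbered between 20013826 and 21277026. Scaled reads are the pooled reads divided by the median of ratios over genes above 0 in every genotype, and log2 ratios were taken with a pseudocount of 1 scaled read. A mean of 50 scaled reads over the genotypes was reached by 15355 genes, including all 43 members. ADR1-L2, the gene of the transgene, had 1148 pooled reads for Col-0, 8543 for ADR1-L2 DV, 3254 for sadr1-26.6 and 1855 for sadr1-30.4. The leaf markers RBCS1A, RCA, CA1 and LHCB1.3 took 4.89% of the reads in ADR1-L2 DV and at least 6.66% in each other genotype, and all 4 were lower in ADR1-L2 DV than in Col-0 (median log2 ratio -0.70). The seed, root and flower markers CRA1, SESA3, CASP1 and AG had between 0 and 33 scaled reads in each genotype, with SESA3 and CASP1 at 0 throughout. In leaf RNA, fewer cells of a type and less RNA per cell cannot be told apart. Scaling by total reads instead moved every log2 ratio of ADR1-L2 DV to Col-0 by 0.21, and the part of the leaf markers in the member values was not tested.

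Upstream sequence was examined first, because the NAC factors named above are known to bind a TGGGC core. The 250 bases before the annotated start were read for all 43 members from the RefSeq genome and annotation of build TAIR10.1. TGGGC on either strand, which on the other strand reads GCCCA, was found in 20 members (46.5%). Among all protein-coding genes of the table the share was 22.9%, and among those that reached 50 scaled reads it was 27.3%. The longer TGGGCC, which contains TGGGC and is also the core of the site II element, was found in 15 members (34.9%), against 18.0% of the protein-coding genes that reached 50 scaled reads. By group, TGGGC was found upstream of 6 of 9 PB genes, 3 of 5 base RPN genes, 4 of 9 lid genes, 4 of 10 PA genes and 3 of 10 RPT genes. These are matches of letters, not bound sites.

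The upstream stretches below were chosen because they carry both extremes of the ADR1-L2 DV comparison and the member with the most matches, and because they overlap no other annotated gene. RPT5a (highest ratio, chr3:1603109-1603358, plus strand) and PBB1 (lowest ratio, chr3:10152208-10152457, plus strand) differ in matches, with 0 and 3. RPN1b (chr4:14072583-14072832, minus strand) has 5. Each is written 5′ to 3′ towards its gene, with TGGGC or GCCCA in capitals.
RPT5a: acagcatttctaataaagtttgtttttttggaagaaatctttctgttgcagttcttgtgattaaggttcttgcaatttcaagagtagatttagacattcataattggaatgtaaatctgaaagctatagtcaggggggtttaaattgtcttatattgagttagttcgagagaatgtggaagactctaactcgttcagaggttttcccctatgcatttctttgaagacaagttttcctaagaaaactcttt
PBB1: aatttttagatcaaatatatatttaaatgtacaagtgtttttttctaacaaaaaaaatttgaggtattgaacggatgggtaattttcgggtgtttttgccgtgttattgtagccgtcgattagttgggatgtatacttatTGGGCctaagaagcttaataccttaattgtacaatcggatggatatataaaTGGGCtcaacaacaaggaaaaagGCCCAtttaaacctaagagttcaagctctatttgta
RPN1b: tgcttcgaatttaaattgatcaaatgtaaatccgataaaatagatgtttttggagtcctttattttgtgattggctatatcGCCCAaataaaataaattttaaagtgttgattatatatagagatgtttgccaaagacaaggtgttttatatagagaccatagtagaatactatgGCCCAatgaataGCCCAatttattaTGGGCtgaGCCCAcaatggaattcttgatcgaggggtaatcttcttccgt
The match nearest to the gene began 36 bases before the annotated start of PBB1 and 42 bases before that of RPN1b. Members with and without a match had overlapping log2 ratios of ADR1-L2 DV to Col-0. The 20 members with a match lay between -0.32 and 0.16 (median -0.10), and the 23 without one between -0.31 and 0.21 (median -0.04).

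The subunit genes differed widely in level, compared here per kb of exon. In Col-0 they ran from 124 scaled reads per kb for RPN5b (AT5G64760), a lid subunit, to 1790 for PBF1 (AT3G60820), a beta subunit. RPT2a had 1666, RPT1a had 1464 and PAD1 had 1249 scaled reads per kb, the next levels below PBF1. Above RPN5b the lowest were RPN1b at 310, PAF2 at 311 and RPT5b at 313 scaled reads per kb, each the less abundant copy of a duplicated subunit. The span of levels across subunits was wider than that of any subunit across genotypes, as the plot of levels shows.

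**Figure D1:**
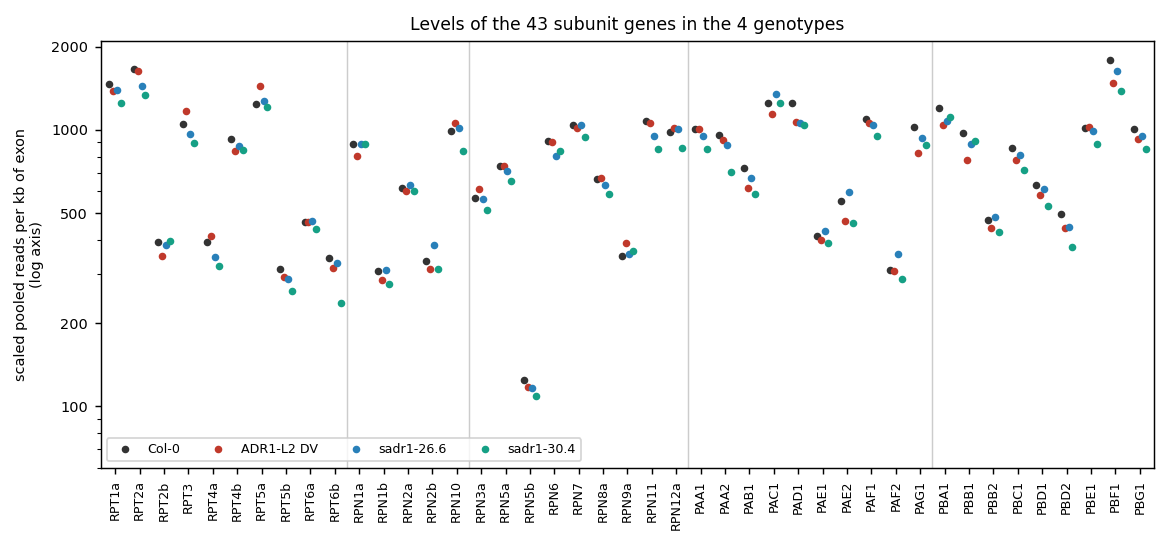
Scaled pooled reads per kb of exon (vertical log axis) for the 43 subunit genes in the 4 genotypes, each point 1 pooled value with no error bar, with vertical lines between the RPT, base RPN, lid RPN, PA and PB genes. Levels in Col-0 run from 124 for RPN5b to 1790 for PBF1, while the points of 1 gene lie close together.

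Whether the subunit genes differ under receptor autoactivity was asked by comparing ADR1-L2 DV with Col-0. None of the 43 members was 1.5-fold higher, where 12.3% of all 15355 genes were, and none was 1.5-fold lower, where 14.8% were. At a lower threshold, a log2 ratio of 0.3219 in size (written 0.32 below), the counts were again 0 in both directions. Among all genes, 23.6% were higher and 25.8% lower at that threshold. PBB1, at -0.319992, fell just short of it. The median log2 ratio of the members was -0.08, with 11 members above 0 and 32 below, and that of all genes was 0.01. The SD across genes was 0.12 for the members and 0.75 for all genes, and 0.66 for the genes with a mean of at least 200 scaled reads, which all members reach. Summed over the members, the counts of 54208 (Col-0) and 63560 (ADR1-L2 DV) gave a log2 ratio of -0.06 with a counting interval of -0.08 to -0.04. Intervals here are exact 95% Clopper-Pearson intervals, and they cover counting error only. The sign depends on the scaling, because with total reads the member median was 0.13 and 37 members lay above 0, while the median of all genes was 0.22. The members lay 0.09 below the median of all genes under either scaling.

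Among the RPT ATPases, which form the ring that unfolds substrates, the median log2 ratio of ADR1-L2 DV to Col-0 was -0.06, with 4 of 10 above 0. RPT5a (AT3G05530) had 2124 scaled reads for Col-0, 2462 for ADR1-L2 DV, 2164 for sadr1-26.6 and 2071 for sadr1-30.4. It was highest in ADR1-L2 DV, at a log2 ratio to Col-0 of 0.21 (counting interval 0.13 to 0.30), the largest value of any member. RPT3 (AT5G58290) had 2168, 2416, 1991 and 1850 scaled reads in the same order of genotypes, a log2 ratio of 0.16 (0.07 to 0.24) for ADR1-L2 DV. Both were higher in ADR1-L2 DV than in every other genotype, also with total reads. The other RPT genes lay between -0.16 (RPT2b) and 0.07 (RPT4a).

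The base RPN genes RPN1 and RPN2 are scaffolds, and RPN10 is a receptor for ubiquitin chains. RPN10 (AT4G38630) had 1653 scaled reads for Col-0, 1771 for ADR1-L2 DV, 1688 for sadr1-26.6 and 1399 for sadr1-30.4. It was the only base RPN gene above 0 in ADR1-L2 DV against Col-0, at 0.10. RPN1a (AT2G20580), which has been tied genetically to powdery mildew resistance in Arabidopsis, had 2755, 2482, 2756 and 2739 scaled reads. Its log2 ratio in ADR1-L2 DV was -0.15 (-0.23 to -0.07), while the counting intervals of both suppressors against Col-0 included 0. This depends on the scaling. With total reads, which add 0.21 to each ratio of ADR1-L2 DV to Col-0, every base RPN gene lay above 0. The counting interval of RPN1a then included 0.

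Under the main scaling the lid genes lay closest to 0, with a median of -0.00484 and 4 of 9 above 0. With total reads, which add 0.21 to every ratio, their median lay farthest from 0 of the subunit groups. RPN9a (AT5G45620) had 659 scaled reads for Col-0, 731 for ADR1-L2 DV, 671 for sadr1-26.6 and 688 for sadr1-30.4, a log2 ratio of 0.15 in ADR1-L2 DV. RPN3a (AT1G20200) had 1095, 1179, 1090 and 994, a log2 ratio of 0.11. The counting intervals of both reached below 0. RPN11 (AT5G23540), the deubiquitinase of the lid, had 1431, 1410, 1262 and 1140 scaled reads, a log2 ratio of -0.02 in ADR1-L2 DV.

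The 20S core genes lay lower than those of the 19S particle in ADR1-L2 DV against Col-0. The median log2 ratio was -0.13 over the 19 PA and PB genes, with 2 above 0, and -0.03 over the 24 RPT and RPN genes, with 9 above 0. By group the medians were -0.14 for PB, -0.10 for base RPN, -0.09 for PA, -0.06 for RPT and -0.00484 for lid genes. The base RPN and PA genes thus lay alike. The 20S genes also lay lower than the 19S genes against Col-0 in sadr1-26.6 (-0.09 and -0.04) and sadr1-30.4 (-0.24 and -0.17). All these comparisons share the Col-0 values. These are descriptions of pooled values, and the difference between 20S and 19S genes was not tested. That difference does not turn on the scaling, which moves all genes alike.

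The lowest ratios were all in the core. PBB1 (AT3G27430), a beta subunit with trypsin-like activity, had 1359 scaled reads for Col-0, 1089 for ADR1-L2 DV, 1238 for sadr1-26.6 and 1270 for sadr1-30.4. Its log2 ratio in ADR1-L2 DV was -0.32 (-0.43 to -0.21), the lowest of the members, and both suppressors lay between ADR1-L2 DV and Col-0. PAG1 (AT2G27020), an alpha subunit, had 1385, 1117, 1265 and 1194 scaled reads, a log2 ratio of -0.31 (-0.42 to -0.20). PBF1, a beta subunit without catalytic activity, had 1982, 1632, 1813 and 1527, a log2 ratio of -0.28 (-0.37 to -0.19). Of these 3 genes, PBF1 alone was lower in sadr1-30.4 than in ADR1-L2 DV, within counting error (log2 ratio -0.10, counting interval -0.20 to 0.00266). PAB1 and PAE2, given next, were also lower there within counting error. PAB1 (AT1G16470), an alpha subunit, had 968, 816, 890 and 779 scaled reads, a log2 ratio of -0.25 (-0.38 to -0.12). PAE2 (AT3G14290), also an alpha subunit, had 652, 554, 705 and 541, a log2 ratio of -0.24 (-0.40 to -0.07). With total reads these 5 genes remained below 0, at -0.11 for PBB1, -0.10 for PAG1, -0.07 for PBF1, -0.04 for PAB1 and -0.02 for PAE2. The counting intervals of all 5, moved up by the same shift of 0.21, then include 0.

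Besides PBB1, the catalytic beta subunits among the members were PBA1, PBB2 and PBE1. PBA1 (AT4G31300), the subunit with caspase-like activity that has been linked to hypersensitive cell death in Arabidopsis, had 1401, 1219, 1263 and 1298 scaled reads, a log2 ratio of -0.20 in ADR1-L2 DV. PBB2 (AT5G40580), the other trypsin-like copy, had 676, 630, 695 and 612, a log2 ratio of -0.10 (-0.25 to 0.05). PBE1 (AT1G13060), a subunit with chymotrypsin-like activity, had 1544, 1551, 1504 and 1348, a log2 ratio of 0.01 (-0.09 to 0.11). The counting intervals of PBB2 and PBE1 included 0. With total reads, which add 0.21, PBA1 lay above 0 with an interval that included 0, and the interval of PBE1 lay above 0. The rest of the core lay between -0.23 (PAD1) and 0.01 (PAA1).

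**Figure D2:**
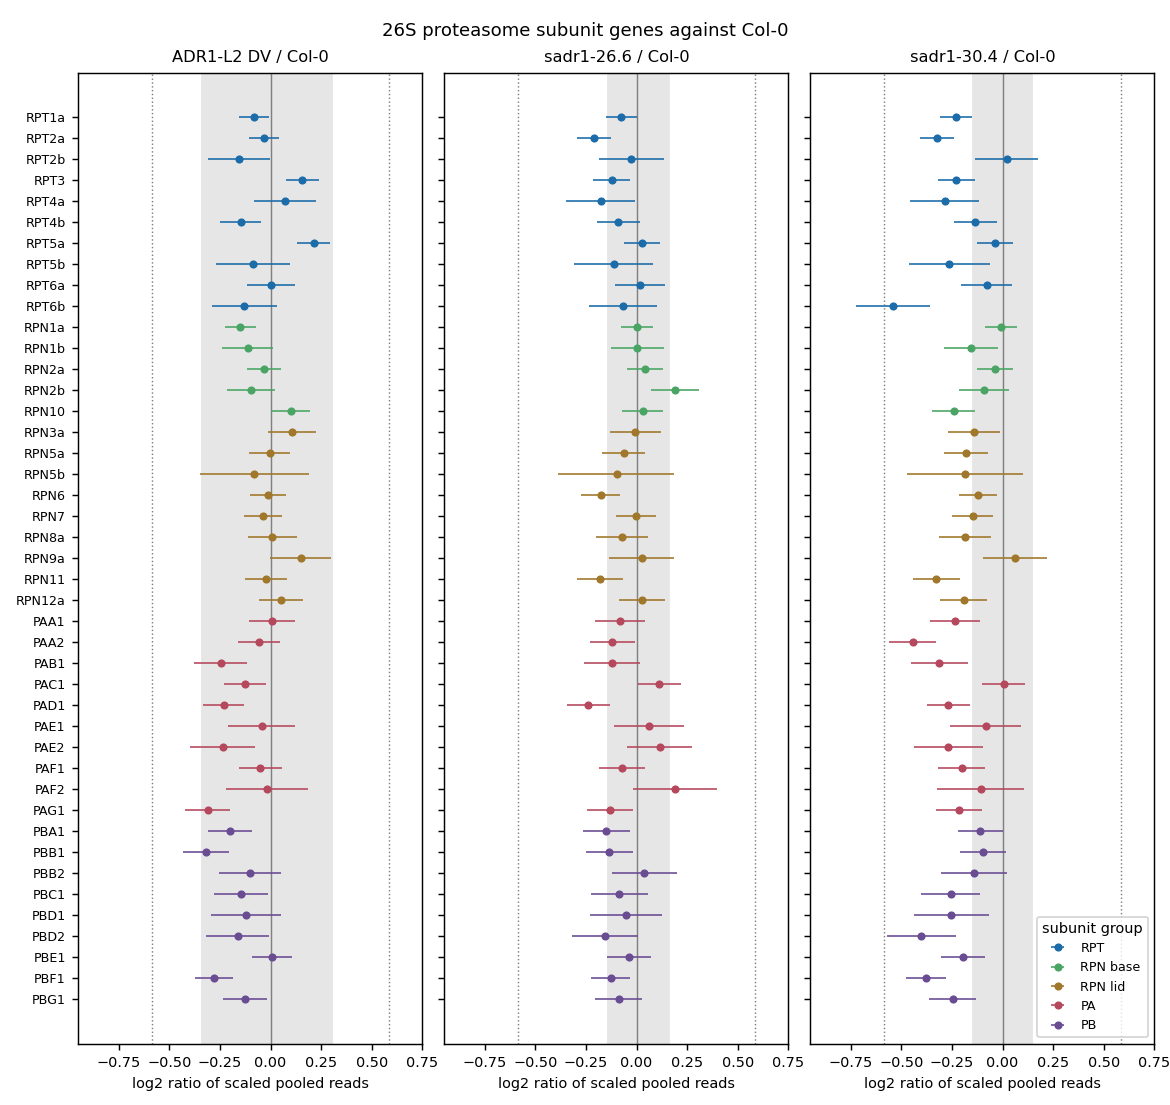
Log2 ratio of scaled pooled reads to Col-0 (horizontal axis) for each subunit gene in ADR1-L2 DV, sadr1-26.6 and sadr1-30.4, with bars for the 95% counting interval, colours for the subunit groups, grey bands for the interquartile range of all 15355 genes and dotted lines at 1.5-fold. All 43 points lie inside the dotted lines in each panel, 40 lie below 0 in sadr1-30.4, and with total-read scaling the ADR1-L2 DV panel moves by 0.21, which puts 37 of its points above 0.

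In sadr1-26.6 against Col-0 the median log2 ratio of the members was -0.07, with 14 above 0 and 29 below, and that of all genes was 0.01. None of the 43 was 1.5-fold higher, where 3.45% of all genes were, or 1.5-fold lower, where 3.71% were. The highest were PAF2, an alpha subunit, with 385 scaled reads in Col-0 and 439 in sadr1-26.6 (0.19), RPN2b, a base scaffold, with 1153 and 1313 (0.19), and PAE2 (0.11). The lowest were PAD1, an alpha subunit, with 1625 and 1378 scaled reads (-0.24), RPT2a, an ATPase, with 2719 and 2350 (-0.21), and RPN11 (-0.18). The counting intervals of PAF2 and PAE2 included 0. With total reads the member median was -0.12, so that its sign did not turn.

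In sadr1-30.4 against Col-0 the members lay lower. Their median log2 ratio was -0.19, with 3 above 0 and 40 below, while the median of all genes was 0.01. Summed over the members, the log2 ratio was -0.18 (counting interval -0.20 to -0.16). None was 1.5-fold higher, where 1.62% of all genes were, or 1.5-fold lower, where 3.67% were. At a log2 ratio of at least 0.32 in size, 6 of 43 were lower, against 10.8% of all genes. These were RPT2a, RPT6b, RPN11, PAA2, PBD2 and PBF1. Of the 43 members, 33 had their lowest scaled reads in sadr1-30.4, 8 in ADR1-L2 DV, and 1 each in Col-0 and sadr1-26.6. This was not counted over all genes, so how common such an order is was not assessed. The split also depends on the scaling. With total reads, no member was lower in ADR1-L2 DV than in sadr1-30.4.

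The lowest member in sadr1-30.4 was RPT6b (AT5G20000), an ATPase, with 619 scaled reads for Col-0, 566 for ADR1-L2 DV, 590 for sadr1-26.6 and 425 for sadr1-30.4. Its log2 ratio to Col-0 was -0.54 (-0.73 to -0.36), and the other 3 genotypes lay well above it. The coding sequence of RPT6b is 94.4% identical to that of RPT6a, so the split of reads between the copies is uncertain. RPT6a was at -0.08 in the same comparison. PAA2 (AT2G05840), an alpha subunit, had 1491, 1432, 1372 and 1096 scaled reads, a log2 ratio of -0.44 (-0.56 to -0.33). PBD2 (AT4G14800), a beta subunit, had 686, 613, 617 and 520, a log2 ratio of -0.40 (-0.57 to -0.23). The highest were RPN9a at 0.06, RPT2b at 0.02 and PAC1 at 0.01. By group, the median in sadr1-30.4 was -0.23 for RPT, -0.09 for the base RPN, -0.18 for the lid, -0.22 for PA and -0.25 for PB genes. With total reads the member median was -0.22.

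Both suppressors were also compared with ADR1-L2 DV, which shares its pooled value with the comparison above. In sadr1-26.6 against ADR1-L2 DV the member median was 0.01, with 24 above 0 and 19 below, and that of all genes was 0.000712. None of the 43 was 1.5-fold higher (15.2% of all genes) or lower (12.9%). At a log2 ratio of at least 0.32 in size, 1 member, PAE2, was higher at 0.35, against 26.8% of all genes. It was followed by RPN2b at 0.29 and PAC1 at 0.24, and the lowest were RPT3 at -0.28, RPT4a at -0.25 and RPT5a at -0.19. The 19S genes had a median of -0.02 and the 20S genes one of 0.07. With total reads the member median was -0.24 and 2 members lay above 0, while the median of all genes was -0.26.

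In sadr1-30.4 against ADR1-L2 DV the member median was -0.11, with 8 above 0 and 35 below, and that of all genes was -0.00118. None was 1.5-fold higher (17.6% of all genes) or lower (16.1%). At a log2 ratio of at least 0.32 in size, 5 members were lower, against 27.1% of all genes. The lowest were RPT6b at -0.41, PAA2 at -0.39 and RPT3 at -0.38, and the highest were PBB1 at 0.22, RPT2b at 0.18 and RPN1a at 0.14. With total reads the member median was -0.35, none lay above 0, and 4 members were 1.5-fold lower, against 25.7% of all genes under the same scaling.

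The suppressors were also set against each other. In sadr1-30.4 against sadr1-26.6 the member median was -0.15, with 5 above 0 and 38 below, while the median of all genes was -0.03. None was 1.5-fold higher (2.84% of all genes) or lower (3.69%), and 3 were lower by a log2 ratio of at least 0.32 in size, against 11.9% of all genes. These were RPT6b at -0.47, PAE2 at -0.38 and PAA2 at -0.32. The highest were RPN6, a lid subunit, at 0.05, RPT2b at 0.05 and PBA1 at 0.04.

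Several subunits are encoded by a pair of copies, and both copies were members for 12 subunits. Their coding sequences were 76.8% to 94.4% identical, most so for RPT6a and RPT6b, which lie 1317 bases apart on the same chromosome. How reads that match both copies were counted is not given in the sources used here, so the split within a pair is uncertain. The share of the first copy ran from 29.3% (RPT4a of RPT4a and RPT4b) to 87.3% (RPN5a of RPN5a and RPN5b) in Col-0. Across the genotypes a pair's share spanned 0.566 to 6.93 percentage points, with a median of 3.46. RPT6a took 64.5% of its pair for Col-0, 66.6% for ADR1-L2 DV, 65.8% for sadr1-26.6 and 71.5% for sadr1-30.4, the widest span of the 12.

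RPT5 was the 1 pair of the 12 in which the counting interval of ADR1-L2 DV lay outside that of Col-0. RPT5a took 81.7% of the RPT5 reads in Col-0 (80.1% to 83.2%) and 84.6% in ADR1-L2 DV (83.3% to 85.8%). For sadr1-30.4 the interval lay outside that of Col-0 in RPT6 (69.1% to 73.8% against 62.2% to 66.8%) and RPT2 (73.9% to 77.1% against 78.2% to 81.0%), and for sadr1-26.6 in none of the 12. RPT2a took 79.7% in Col-0 and 75.5% in sadr1-30.4, and RPT4a took 29.3% and 27.2%. RPN1a took 73.2% and 75.2%, RPN2a took 65.3% and 66.1%, and RPN5a took 87.3% and 87.4%. In the core, PAA1 took 44.8% and 48.3%, PAE1 took 46.5% and 49.7%, and PAF1 took 78.0% and 76.8%. PBB1 took 66.8% and 67.5%, and PBD1 took 44.6% and 47.2%. The share of the first copy stayed on 1 side of 50% in all 4 genotypes in each of the 12 pairs. The counting interval still included 50% for PAE in ADR1-L2 DV and for PAA, PAE and PBD in sadr1-30.4. Other subunits have 1 copy among the members and 1 among the further subunit genes given below. For RPT1, RPN8, RPN9, RPN12 and PAD the ADR1-L2 DV interval lay outside the Col-0 interval. For RPN3, PAB, PAC, PBC and PBE the intervals overlapped. From Col-0 to ADR1-L2 DV, RPT1a fell from 72.4% to 65.3% and PAD1 from 69.5% to 63.9%. RPN9a rose from 51.6% to 58.3%, RPN8a from 82.2% to 86.8% and RPN12a from 98.8% to 99.7%. RPT1a spanned 7.06 points, more than RPT6a.

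**Figure D3:**
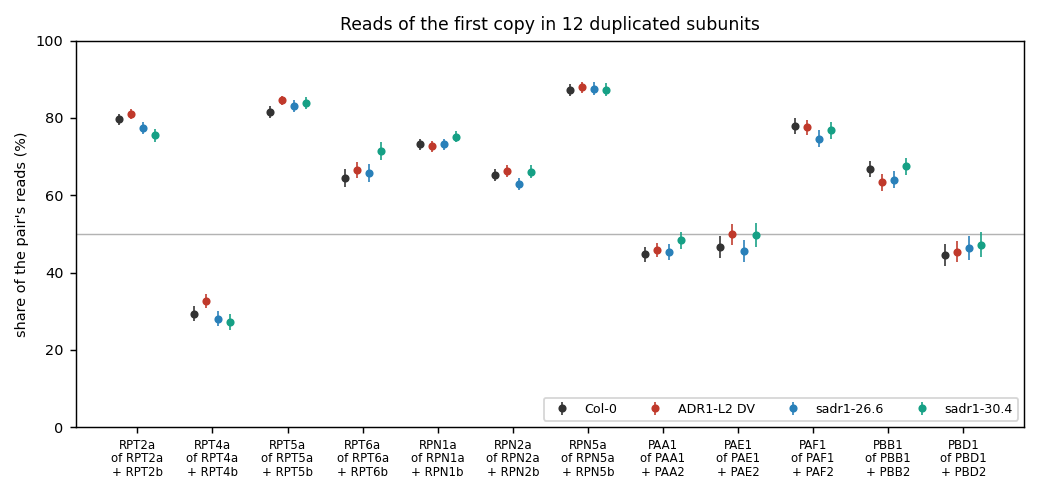
Share of a pair's pooled reads taken by the first copy (vertical axis, %) in the 12 subunits with both copies among the members, in the 4 genotypes, with bars for 95% counting intervals and a line at 50%. The widest span is that of RPT6a, from 64.5% in Col-0 to 71.5% in sadr1-30.4.

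Other genes of the pathway were listed beside the members. Of 11 further subunit genes, 9 reached 50 scaled reads, and none was 1.5-fold higher or lower in ADR1-L2 DV than in Col-0 (median -0.09). Among all genes, 12.3% were 1.5-fold higher and 14.8% were 1.5-fold lower. The highest were RPT1b, a second copy of the ATPase RPT1, at 0.40, RPN13, a ubiquitin receptor, at 0.16, and PAD2, an alpha subunit, at 0.13. With total reads, which add 0.21, RPT1b passed 1.5-fold, where 20.6% of all genes did. The lowest were RPN8b at -0.50, PBE2 at -0.25 and RPN9b at -0.24. RPN12b and PAC2 had means under 50 scaled reads and were not compared.

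Of 6 genes for assembly and regulation, 2 were 1.5-fold higher in ADR1-L2 DV than in Col-0 and none was 1.5-fold lower (median 0.28). The shares of all genes were 12.3% higher and 14.8% lower. NAC053 (AT3G10500), the NAC factor named above, had 401 scaled reads for Col-0, 1027 for ADR1-L2 DV, 384 for sadr1-26.6 and 299.8 for sadr1-30.4. Its log2 ratio in ADR1-L2 DV was 1.36 (counting interval 1.19 to 1.53), while sadr1-26.6 lay within counting error of Col-0 and sadr1-30.4 lay below it at -0.42. UMP1B (AT5G38650), a chaperone of core assembly, had 426, 673, 603 and 522 scaled reads, a log2 ratio of 0.66 (0.49 to 0.84). It stayed above Col-0 in both suppressors, at 0.50 and 0.29. NAC078 was at 0.29, PTRE1, a regulator of proteasome activity, at 0.28, and UMP1A at -0.12. PA200 (AT3G13330), an activator that can cap the core in place of the 19S particle, had 4000, 4676, 3375 and 3028 scaled reads, a log2 ratio of 0.23 (0.17 to 0.29).

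Among 19 genes for ubiquitin supply and delivery, 1 was 1.5-fold higher in ADR1-L2 DV and none was 1.5-fold lower (median 0.08). The shares of all genes were 12.3% higher and 14.8% lower. UBQ10 (AT4G05320), a polyubiquitin gene, had 41213 scaled reads for Col-0, 80709 for ADR1-L2 DV, 43235 for sadr1-26.6 and 40164 for sadr1-30.4. ADR1-L2 DV stood apart from the other 3 genotypes, at a log2 ratio of 0.97 (0.95 to 0.99). Polyubiquitin genes share near-identical repeats, so the split of reads among UBQ10, UBQ11 and their relatives is uncertain. CDC48A and CDC48C, ATPases that extract ubiquitinated proteins and deliver them to the proteasome, were both at 0.45. The count of 1.5-fold higher genes depends on the scaling. With total reads CDC48A (at 0.66), CDC48C and UBQ11 also passed 1.5-fold, where 20.6% of all genes did. RAD23C, a shuttle factor for ubiquitinated proteins, was at -0.28, and UBA1, a ubiquitin-activating enzyme, at -0.25.

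The COP9 signalosome, a complex related to the lid that removes NEDD8/RUB from cullins, had 0 of 10 genes 1.5-fold higher or lower (median 0.07). Of all genes, 12.3% were 1.5-fold higher and 14.8% lower. CSN8 at 0.47, CSN6A at 0.30 and CSN1 at 0.16 were highest, and CSN5B at -0.13, CSN3 at -0.06 and CSN6B at -0.00569 lowest. With total reads every one of these ratios is higher by 0.21, so that the direction of the genes near 0 is not fixed by these data. CSN8 then passed 1.5-fold, where 20.6% of all genes did.

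**Figure D4:**
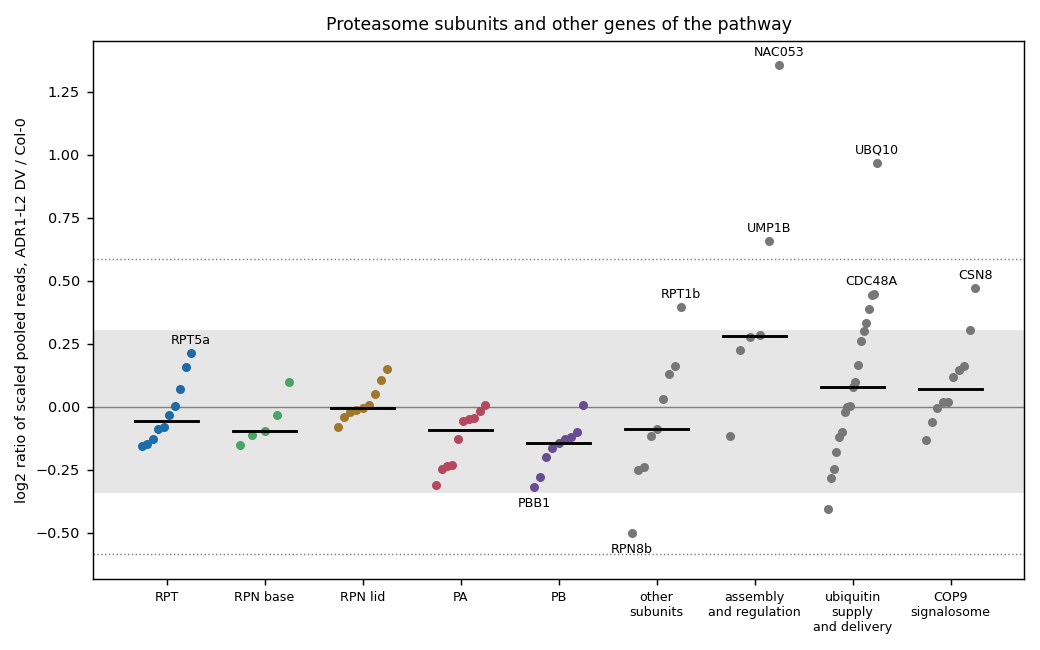
Log2 ratio of scaled pooled reads of ADR1-L2 DV to Col-0 (vertical axis) for the 5 subunit groups and the 4 other lists, each point 1 gene, with black bars for medians, a grey band for the interquartile range of all 15355 genes and dotted lines at 1.5-fold. NAC053 at 1.36, UBQ10 at 0.97 and UMP1B at 0.66 lie above the upper dotted line, and no subunit gene does. With total-read scaling all points move up by 0.21, which takes RPT1b, CDC48A, CDC48C, UBQ11 and CSN8 past that line too.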

How the data were processed

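Leaf RNA of 4 genotypes was sequenced in 12 samples, grouped by their labels. The authors deposited 1 table for the whole series. It holds whole-number values headed RPKM, 1 column per genotype, which were read as pooled read counts because they total 20013826 to 21277026 per genotype and rise with gene length. Whether a column is a sum or a mean of 3 samples is not stated. The table also holds the authors' log2 fold changes and FDR values against Col-0, which were not used. The submitters' processing notes name build TAIR10, and for the aligner and the counting tool nothing is stated (not given in the sources used here).

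Counts were scaled by the median of ratios, and log2 ratios were taken with a pseudocount of 1. Genes with a mean of at least 50 scaled reads were compared, and a fold of 1.5 was the call. No test was run, since no value per sample was used. Clopper-Pearson intervals (95%) cover counting error only and would be narrower if the columns are means. At least 192 pooled reads were behind every member value.

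Members and lists were chosen with earlier results of these data known. Named genes were the 5 highest and 5 lowest members in ADR1-L2 DV against Col-0, the 3 highest and 3 lowest in other comparisons and in each other list, both copies of duplicated subunits, and ADR1-L2, except 1 gene that is not reported here. RPN1a, RPN11, PBA1 and PBE1 were added for their known roles after their values were seen. Alternatives were total reads or edgeR 4.0.16 TMM factors for scaling, a pseudocount of 5, a floor of 200 or none, and call thresholds of a log2 ratio of 0.32 or a fold of 2. Calculations used Python 3.11.15 with numpy, pandas and scipy 1.17.1, and were tested on simulated counts. Upstream sequences and exon lengths came from RefSeq TAIR10.1.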

Additional observations from a re-analysis of the deposited data

How the results depend on the processing

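No paired analysis was possible because no value per sample was used, and for the same reason no replicate was left out in turn. Scaling by edgeR TMM factors, a pseudocount of 5, a floor of 200 scaled reads and no floor moved each of the 6 member medians by less than the distance from the middle to the end of the counting interval of the summed member ratio, and left all counts of 1.5-fold members at 0. Scaling by total reads moved the member median to 0.131 in ADR1-L2 DV against Col-0, -0.115 in sadr1-26.6 against Col-0, -0.217 in sadr1-30.4 against Col-0, -0.243 in sadr1-26.6 against ADR1-L2 DV, -0.346 in sadr1-30.4 against ADR1-L2 DV and -0.125 in sadr1-30.4 against sadr1-26.6. The sign turned in the first and in sadr1-26.6 against ADR1-L2 DV, and 4 members were then 1.5-fold lower in sadr1-30.4 against ADR1-L2 DV. With a threshold of 0.32 on the log2 ratio the lower members numbered 6 in sadr1-30.4 against Col-0, 5 in sadr1-30.4 against ADR1-L2 DV and 3 in sadr1-30.4 against sadr1-26.6, and 1 was higher in sadr1-26.6 against ADR1-L2 DV. With a fold of 2 the counts stayed at 0. The shift under total reads applies to every gene alike, by construction. Counting intervals of single members against Col-0 in ADR1-L2 DV reached 0.0736 to 0.268 on either side on the log2 scale. A difference smaller than a gene's own interval lies within counting error. The intervals set no detection limit, because they leave out the variation between plants. The variation between plants could not be estimated.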
